A study of Homo sapiens with 6 samples.

Results

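This report describes the genes of transsulfuration, glutathione metabolism, the thioredoxin system and the peroxiredoxins, together with the redox regulator NRF2, its partners and 3 of its inducible targets, in 12Z cells after knockdown of the long non-coding RNA LINC01133. The genes were taken from a list of 35 symbols that was set by function, with no expression value in the rule. The list was, however, chosen with earlier results of these data known. Of the 35, 34 could be matched by Ensembl identifier to a row among the 60660 genes counted, and each of these 34 was among the 15155 genes that passed the filter on low counts. SOD2 was not analysed here.

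12Z is an immortal line of epithelial cells from endometriosis, a disease in which endometrium-like tissue grows outside the uterus. Both groups were 12Z cells transfected at 10 nM and lysed 72 h later: the control group (n = 3 libraries) received a non-targeting siRNA, and the knockdown group (n = 3 libraries) received the LINC01133a siRNA. Polyadenylated RNA was sequenced. The contrast therefore rests on a single cell line, a single time point and a single targeting oligonucleotide, delivered transiently, and any effect of that oligonucleotide on other transcripts cannot be told apart from loss of LINC01133.

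Transsulfuration carries the sulfur of homocysteine to cysteine through cystathionine. Cysteine made this way, or imported as cystine, limits the synthesis of glutathione, the main small thiol of the cell, which peroxidases and transferases then spend on peroxides and electrophiles. Thioredoxin and the peroxiredoxins form a parallel thiol system. The transcription factor NRF2, encoded by NFE2L2, is held low by KEAP1, which passes it to a ubiquitin ligase, and on release it pairs with small MAF proteins at antioxidant response elements, where BACH1 competes with it as a repressor. ATF4, the factor of the amino acid response, works through other elements, and CBS, SLC7A11 and CHAC1 are also known as ATF4-responsive genes.

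The antioxidant response element is shown first because the list holds known NRF2 targets. RefSeq promoter windows on GRCh38.p14, running from 250 bases before to 50 bases after a start site, were given for 28 of the 35 genes, HMOX1 not among them. The core TGACNNNGC, searched on both strands, lay in the windows of 6 of these 28 genes (21.4%), against 16.1% of all 27305 genes with a window and 19.4% of the tested genes with one. A gene counted when any of its windows matched. The 28 members had 46 windows and the 27305 genes had 35116, so more windows were searched per member and the shares are not like for like. Among the members with lower RNA after knockdown it lay in 4 of 11 (36.4%), against 19.8% of all tested genes with lower RNA, and among the members with higher RNA in 1 of 3 (33.3%), against 19.4%. NQO1 had no match in the sequence searched, and bases further than 250 before a start site were not searched for any gene. The stretches below give 1 core from each of these 6 genes on the gene's own strand, with the core, or its reverse complement, in capitals.
GCLM (chr1:93909446-93909474, minus strand): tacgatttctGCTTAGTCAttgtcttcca
KEAP1 (chr19:10502784-10502812, minus strand): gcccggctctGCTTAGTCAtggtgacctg
TXNRD1 (chr12:104215670-104215698, plus strand): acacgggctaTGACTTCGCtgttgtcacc
MGST1 (chr12:16347135-16347163, plus strand): ggggacatcgTGACAAAGCaaattgtctg
GSTP1 (chr11:67583736-67583764, plus strand): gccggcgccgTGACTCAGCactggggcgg
CBS (chr21:43076442-43076470, minus strand): ccggctctggGCGCGGTCAcgcggggcgc
GCLM and KEAP1 share the same 9 letters in capitals, and GSTP1 holds the form TGACTCAGC, which is a special case of the core and lay in 0.689% of all genes' windows. An element of another kind, TGATGNAA, which matches sites of ATF4 with a C/EBP partner, was searched the same way. It lay in CHAC1 and GPX8, 2 of the 28 genes (7.14%), against 4.46% of all genes and 2.62% of the tested genes. Its capitals here mark that match.
CHAC1 (chr15:40953252-40953279, plus strand): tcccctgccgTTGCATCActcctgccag
GPX8 (chr5:55159972-55159999, plus strand): aaaattataaTTACATCAcaaatacttt
A match is a description of these letters in these windows and is not evidence of binding.

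Counts on genes ranged from 27742562 to 37551194 per library. The target LINC01133 had 813, 818 and 837 normalised counts in the controls and 130, 131 and 138 after knockdown, which left 16.1% of the control level (log2 fold change -2.63, SE 0.070, adjusted p = 3.5e-11). Here and throughout, a normalised count is a count scaled to a common effective library size, and adjusted p-values come from edgeR's quasi-likelihood test over the 15155 genes. Control replicate 2 stood apart from its group: the chi-square per gene was 11.9 and 13.1 against the other controls, which differed from each other by 3.75, while the knockdown pairs gave 2.20 to 3.51. For the members, values without it are given where it changes a call. For the other redox genes read below they are not given gene by gene. Of those 119 genes, 80 passed with all libraries and 74 without control replicate 2. Of the epithelial markers, the keratins KRT8, KRT18 and KRT19 were abundant and EPCAM was near background at 9.33 to 22 normalised counts, and the stromal collagens COL1A1 and COL3A1 were also abundant. The summed level of the 6 epithelial markers was 199952 to 210812 in the controls and 127729 to 133727 after knockdown, with 5 of 6 lower. That of the 7 stromal markers was 234238 to 255036 and 235767 to 239006, with 4 of 7 lower and 0 higher. Over all genes 25.0% were lower. Of the endothelial markers 3 of 5 were tested, with sums of 247 to 273 and 241 to 274. Of the leukocyte markers 2 of 5 were tested, with sums of 1621 to 1829 and 852 to 917, and CD3E had no count. The leukocyte marker CD68 has 81.6% of its exonic bases in overlap with another gene on the same strand. The part of these marker changes in the results on redox genes was not tested. All libraries are bulk samples of the 12Z line, so fewer cells with a marker and less marker RNA per cell cannot be told apart.

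Of the 34 genes, 4 were higher and 14 were lower after knockdown at an adjusted p under 0.05, and 16 did not pass. Across all tested genes 48.3% passed, 23.3% higher and 25.0% lower, so that passing this test was common in these libraries and the 18 of 34 (52.9%) lay near the background. Scaled by library size alone, 9 members were higher and 11 lower, and over all genes 4701 were higher and 2939 lower against 3532 and 3783 in the main scaling. A fold change over 1.5 in addition (a log2 change beyond 0.585) was reached by 5 of the 34 (14.7%), against 11.7% of all genes, of which 5.30% were higher and 6.43% lower. These 5 were CBS and CHAC1, both higher, and GCLM, HMOX1 and NQO1, each lower, and all of them passed both criteria in each of the 13 alternative settings run. The 3 control and 3 knockdown libraries did not overlap in 21 of the 34 (61.8%), against 57.3% of all genes. The median log2 fold change was -0.057 over the 34 genes and 0.0032 over all genes tested. The larger changes thus sat in a handful of genes, described by role in what follows.

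**Figure D1:**
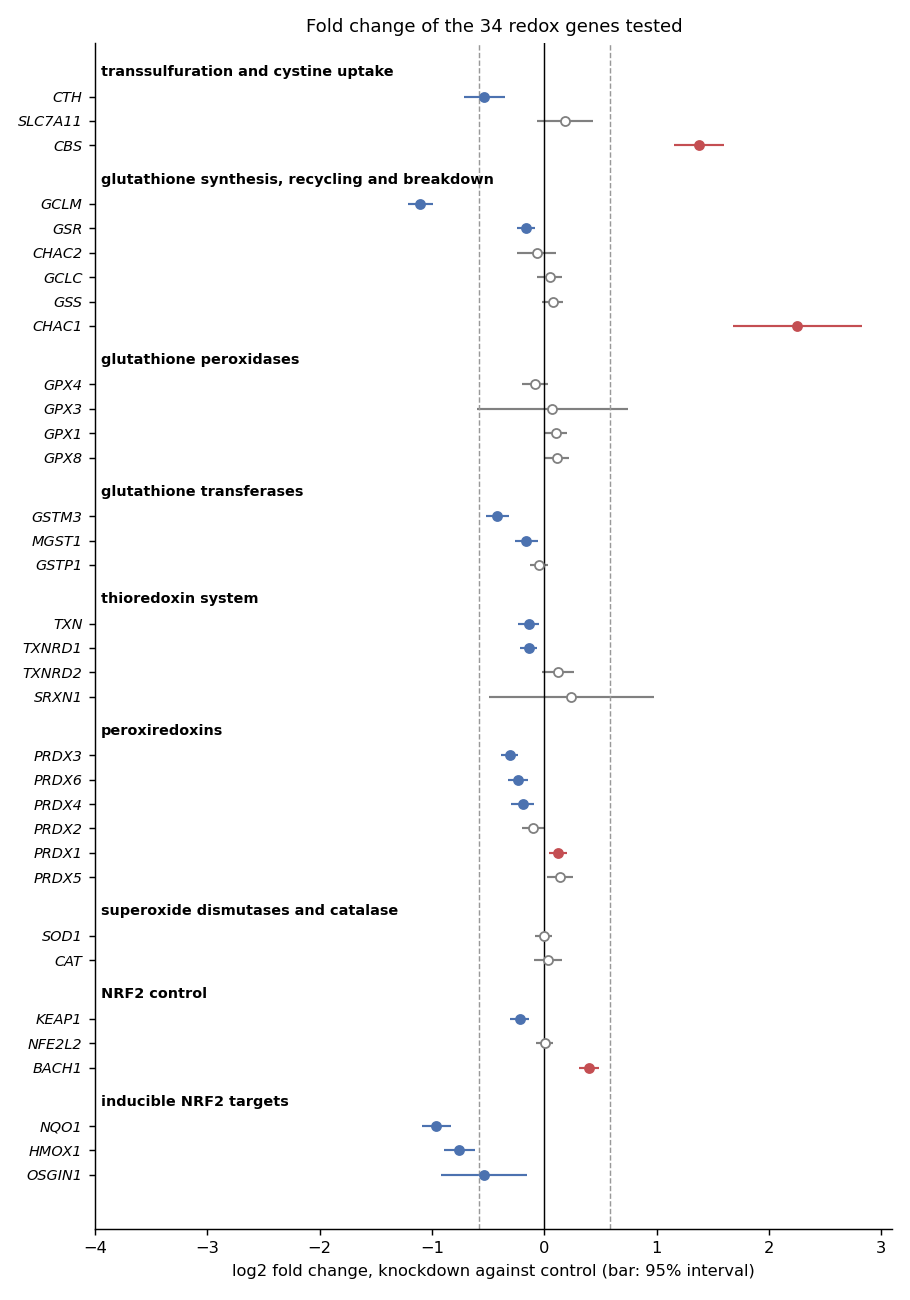
Log2 fold change of the 34 redox genes, knockdown against control (x axis), grouped by role (y axis). Points are edgeR estimates with 95% intervals, filled red (higher) or blue (lower) at an adjusted p under 0.05 and open otherwise, and dashed lines mark 1.5-fold. CHAC1 (2.25) and CBS (1.38) lie furthest to the right and GCLM (-1.10), NQO1 (-0.96) and HMOX1 (-0.76) furthest to the left, and most other genes lie within 0.5 of 0.

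The transsulfuration genes moved in opposite directions. CBS (ENSG00000160200, chr21:43053191-43076943, minus strand), which joins homocysteine and serine into cystathionine, had 109, 98.0 and 91.2 normalised counts in the controls and 263, 255 and 260 after knockdown. Every knockdown library was higher than every control. The mean rose from 99.4 ± 8.91 to 259 ± 3.72 (SD, n = 3 each), or by 1.38 on the log2 scale (95% interval 1.16 to 1.60, adjusted p = 2.1e-07). CBS reads are shared in part with a second copy of the gene on the same chromosome (ENSG00000274276, chr21:6444869-6467513), which the annotation marks as an artifact of the assembly. Of the 2371 windows of 125 bases in the main CBS transcript, 807 occur elsewhere on chromosome 21, and a read from these alone cannot be placed uniquely. The copy itself had 115, 140 and 131 normalised counts in the controls and 236, 233 and 217 after knockdown, a log2 fold change of 0.84 (SE 0.10, adjusted p = 2.2e-05). With the copies summed, a step chosen after seeing the data, CBS went from 224, 238 and 222 to 498, 488 and 477, a log2 fold change of 1.10 (SE 0.072, adjusted p = 6.8e-08). The direction was thus the same in each count, at 2.60-fold for the annotated gene and 2.14-fold for the sum.

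CTH (chr1:70411218-70439851), which releases cysteine from the cystathionine that CBS makes, fell. Its normalised counts were 764, 782 and 608 in the controls and 498, 505 and 482 after knockdown, again without overlap between the groups. The log2 fold change was -0.53 (SE 0.085, adjusted p = 0.00018), which missed the 1.5-fold limit. Control replicate 3 was the lowest control, and without it the change was -0.64 and passed that limit. SLC7A11, the light chain of the cystine-glutamate exchanger, had 2251, 2984 and 2022 normalised counts in the controls and 3014, 2853 and 2356 after knockdown. The groups overlapped because control replicate 2 was as high as the knockdown libraries. The difference did not pass (log2 fold change 0.19, 95% interval -0.064 to 0.44, adjusted p = 0.20). Without control replicate 2 it was 0.36 with an adjusted p of 2.2e-04. With all 6 libraries it passed with no filter on low counts (adjusted p = 4.8e-04) and with the replicate number as a block (adjusted p = 0.047). The call for SLC7A11 thus depended on these choices. The edgeR fit with no filter is not on an equal footing, since its adjusted p for GCLM was 1.3e-121 against 3.3e-09 in the main fit, at log2 fold changes of -1.10 in both.

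**Figure D2:**
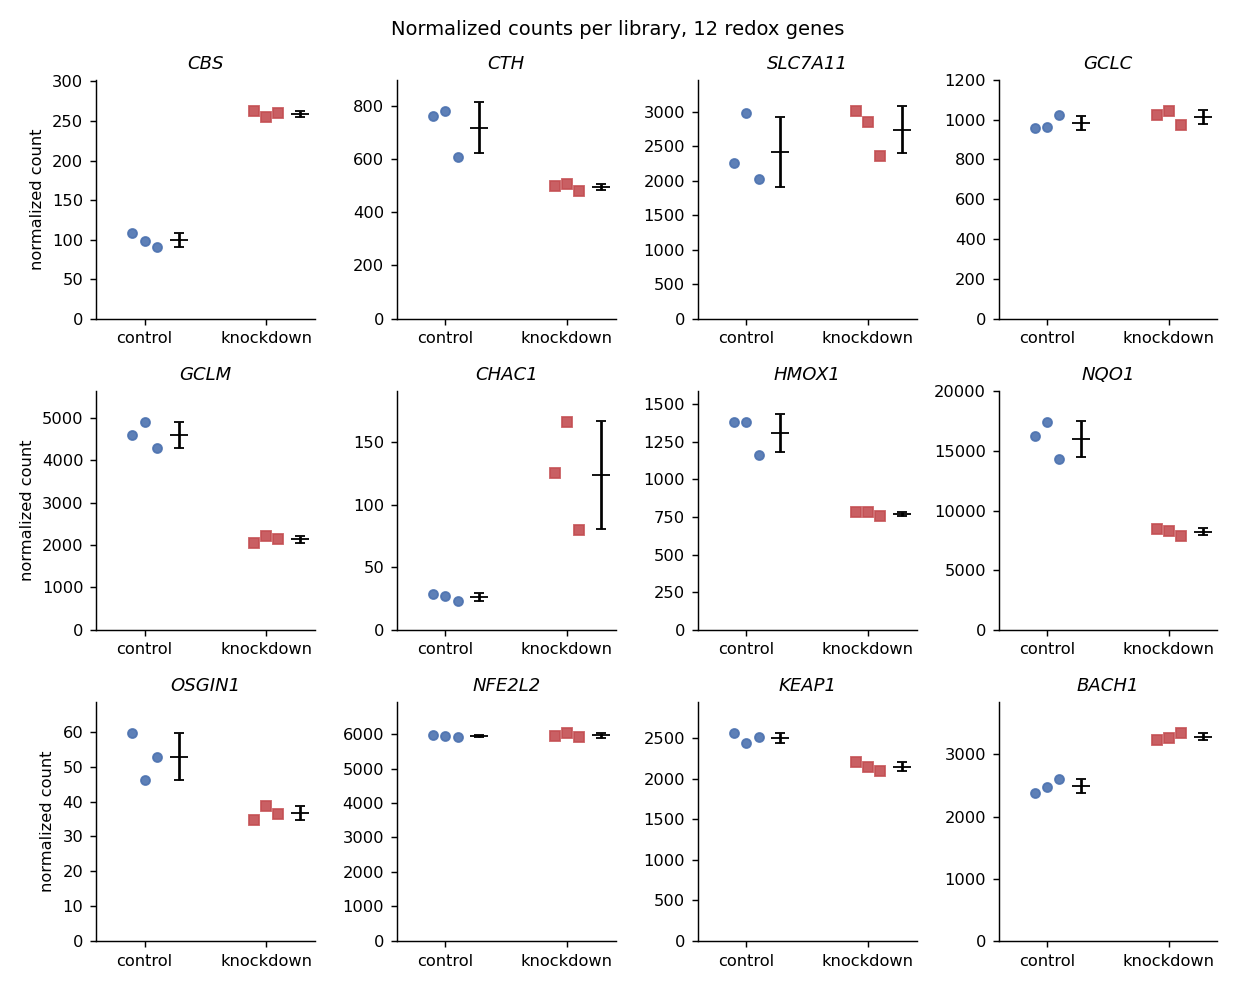
Normalised counts per library (y axes, linear, from 0) of 12 redox genes in the 3 control and 3 knockdown libraries (x axes). Each dot is a library and black marks show the mean ± SD. The groups are separate for CBS, CTH, GCLM, CHAC1, HMOX1, NQO1, OSGIN1, KEAP1 and BACH1, and they overlap for SLC7A11, GCLC and NFE2L2.

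In glutathione synthesis, the subunits of glutamate-cysteine ligase, the rate-limiting enzyme, behaved differently. GCLC, the catalytic subunit, had 957, 965 and 1024 normalised counts in the controls and 1022, 1044 and 973 after knockdown. These ranges overlapped, and the log2 fold change of 0.046 had a 95% interval of -0.062 to 0.15 (adjusted p = 0.47). GCLM (ENSG00000023909, chr1:93885199-93909456, minus strand), the modifier subunit that raises the activity of GCLC, had 4602, 4904 and 4280 in the controls and 2058, 2220 and 2135 after knockdown. Each knockdown library was below every control by a wide margin. The mean fell from 4595 ± 312 to 2138 ± 80.9, or to 46.5% of the control level (log2 fold change -1.10, 95% interval -1.21 to -0.99, adjusted p = 3.3e-09). The intervals of the GCLC and GCLM log2 changes did not overlap. GCLM is one of the genes whose promoter window, shown above, held the antioxidant response core, 34 bases before the start site.

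GSS, which adds glycine to complete glutathione, had 1994, 2013 and 1961 normalised counts in the controls and 2072, 2209 and 2008 after knockdown, and did not pass (log2 fold change 0.076, adjusted p = 0.16). GSR, which returns oxidised glutathione to its reduced form, went from 4579, 4577 and 4594 to 4029, 4226 and 4023. It fell by a small amount that was still larger than the spread between replicates (log2 fold change -0.16, SE 0.036, adjusted p = 0.0023).

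CHAC1 (ENSG00000128965, chr15:40952962-40956512), a cytosolic enzyme that breaks glutathione down and whose induction is a known mark of the ATF4 arm of stress signalling, rose most of the 34 genes. It had 28.4, 27.0 and 22.8 normalised counts in the controls and 125, 166 and 79.4 after knockdown. The knockdown libraries spread widely but the lowest was still well above the highest control. The mean went from 26.1 ± 2.92 to 124 ± 43.3, a 4.77-fold rise (log2 fold change 2.25, 95% interval 1.68 to 2.82, adjusted p = 1.3e-05), and leaving out any 1 library gave 2.00 to 2.47. Its constitutive relative CHAC2 had 351, 409 and 343 against 352, 346 and 352 and did not pass (log2 fold change -0.069, adjusted p = 0.51). The CHAC1 promoter window held the TGATGNAA match shown above, 209 bases before the start site.

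NFE2L2 RNA, which encodes NRF2, was at nearly the same level in all 6 libraries. It had 5982, 5935 and 5926 normalised counts in the controls and 5936, 6026 and 5914 after knockdown. The groups overlapped fully, and the log2 fold change of 0.0028 had a 95% interval of -0.070 to 0.076 (adjusted p = 0.95). Of its exonic bases, 13.6% overlap another gene on the same strand, where reads were not counted. These are RNA levels, and NRF2 is known to be set largely by protein turnover, which was not measured.

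Of the genes that restrain NRF2, KEAP1 fell and BACH1 rose. KEAP1 (chr19:10486125-10503558, minus strand), the adaptor that marks NRF2 for degradation, had 2564, 2447 and 2511 normalised counts in the controls and 2207, 2142 and 2102 after knockdown. There was no overlap between the groups, although the change was small (log2 fold change -0.22, SE 0.039, adjusted p = 0.00044). BACH1 (chr21:29194071-29630751), the repressor that competes for the same elements and is known above all for repression of HMOX1, had 2382, 2476 and 2609 in the controls and 3230, 3270 and 3341 after knockdown. All of the knockdown libraries were higher than the controls. The mean rose from 2489 ± 114 to 3280 ± 56.4, which is 1.32-fold (log2 fold change 0.40, 95% interval 0.31 to 0.49, adjusted p = 4.9e-06).

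The 3 genes grouped here as inducible NRF2 targets each fell, and their median was -0.76 on the log2 scale. This group does not hold every NRF2 target of the list, since TXNRD1 is filed under another role. Among genes under other roles, GCLM (-1.10) and TXNRD1 (-0.14) fell, GCLC (0.046) and SLC7A11 (0.19) did not pass, and PRDX1 (0.12) rose. These are examples: GSR, TXN, PRDX6, GSTM3 and MGST1 also fell, and SRXN1 and GSTP1 did not pass. Over all 34 members tested, 14 were lower, 4 were higher and 16 did not pass. The fall of the 3 genes thus does not stand for the whole list. NQO1 (ENSG00000181019, chr16:69706996-69726668, minus strand), a quinone reductase and the most used readout of NRF2 activity, had 16226, 17436 and 14362 normalised counts in the controls and 8480, 8278 and 7887 after knockdown. The highest knockdown library was far below the lowest control. NQO1 was left at 51.3% of the control level (log2 fold change -0.96, SE 0.059, adjusted p = 3.7e-08). HMOX1 (ENSG00000100292, chr22:35380361-35394214), the inducible enzyme that opens the heme ring, had 1379, 1382 and 1163 in the controls and 782, 781 and 758 after knockdown. These groups were again separate, and the mean fell from 1308 ± 126 to 773 ± 13.4, or to 59.2% (log2 fold change -0.76, SE 0.065, adjusted p = 8.2e-07). OSGIN1, an oxidative stress-induced growth inhibitor, had 59.6, 46.2 and 52.9 against 34.8, 38.8 and 36.3. The fall was less secure at this low level (log2 fold change -0.54, SE 0.18, adjusted p = 0.023), and DESeq2 gave an adjusted p of 0.13. Leaving out control replicate 1 (-0.44), or either of knockdown replicates 1 (-0.49) and 3 (-0.53), also ended the call, and without control replicate 2 the change was -0.62 (adjusted p = 0.015) and passed the 1.5-fold limit.

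A longer list of 28 other known NRF2 targets was read from the same fit. It was chosen with earlier results of these data known, so its counts are a description and not an independent check. Of the 26 that were tested, 18 were lower after knockdown and 8 did not pass, 20 had groups that did not overlap, and the median log2 fold change was -0.25. Over all genes 25.0% were lower, 57.3% had groups that did not overlap, and the median was 0.0032. AKR1B10 and AKR1C1, aldo-keto reductases, which reduce carbonyls and steroids, had the lowest log2 fold changes of the list, whereas their relative AKR1B1, looked up after these values were seen, was at -0.18. AKR1B10 had 64.4, 63.1 and 31.1 normalised counts in the controls and 9.32, 5.83 and 3.40 after knockdown (log2 fold change -3.01, SE 0.38, adjusted p = 2.6e-05). AKR1C1 had 64.4, 82.2 and 41.5 against 22.9, 22.3 and 23.8 (log2 fold change -1.44, SE 0.25, adjusted p = 4.1e-04), with 17.1% of its windows found elsewhere on chromosome 10, where its close relatives lie. At a higher level of expression, and chosen for mention after their values were seen, EPHX1, the microsomal epoxide hydrolase, fell from 1293 ± 49.4 to 804 ± 32.3 and PIR, the nuclear protein pirin, from 625 ± 17.2 to 408 ± 13.3. The chains of ferritin, FTL and FTH1, which were also picked after their values were seen, had log2 fold changes of -0.015 (adjusted p = 0.85) and -0.19, with 10.7% of the FTH1 windows found elsewhere in the genome.

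**Figure D3:**
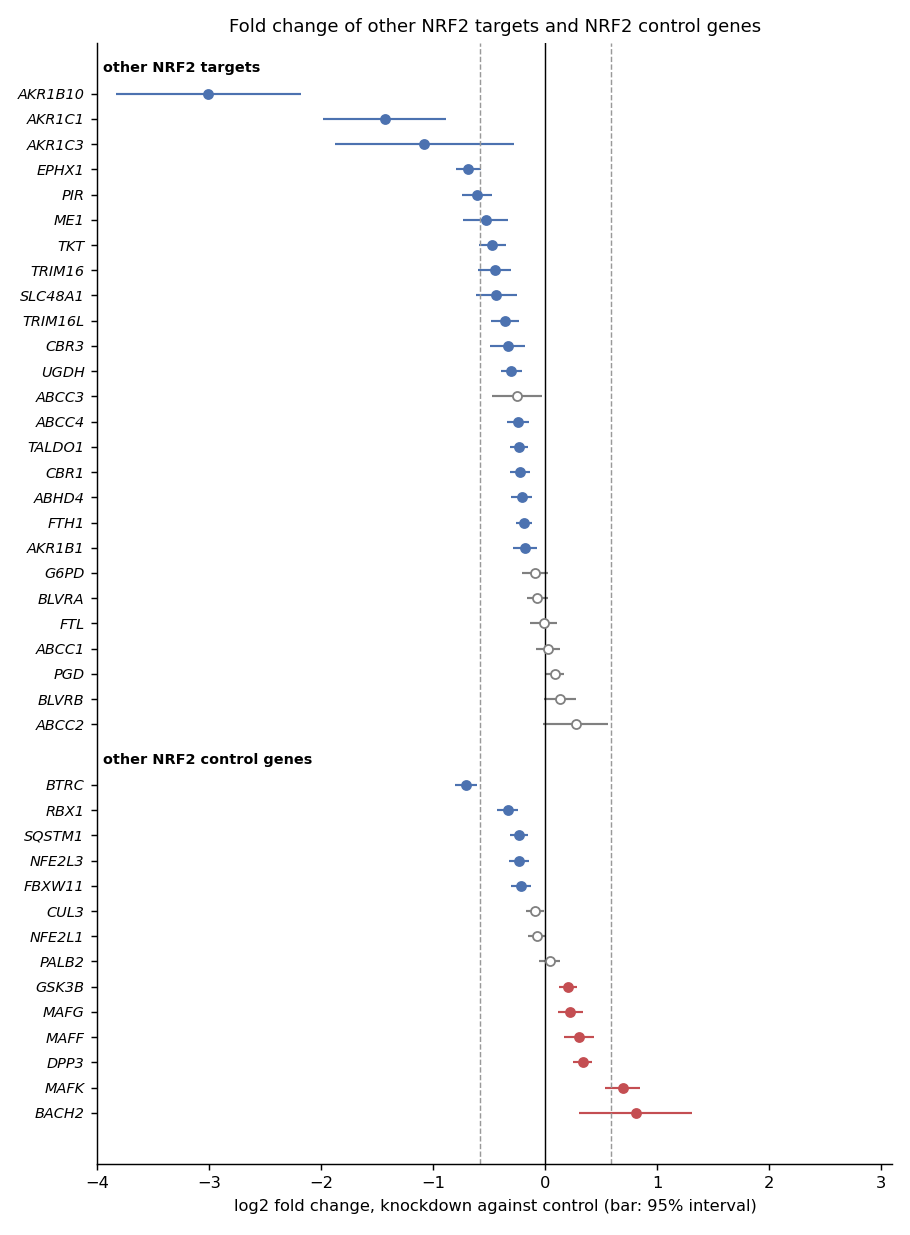
Log2 fold change, knockdown against control (x axis), of the other known NRF2 targets and of the other genes that control NRF2 (y axis). Points are edgeR estimates with 95% intervals, filled red (higher) or blue (lower) at an adjusted p under 0.05 and open otherwise, and dashed lines mark 1.5-fold. Of the 26 targets 18 are lower, led by AKR1B10 at -3.01, while BACH2 (0.81) and MAFK (0.69) are higher and BTRC (-0.71) lower among the regulators.

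Of 14 other genes that control NRF2, 6 were higher, 5 were lower and 3 did not pass, with a median of -0.018. Over all genes 23.3% were higher and 25.0% lower, with a median of 0.0032. MAFK, a small MAF protein that pairs with NRF2 and with BACH1, went from 949, 730 and 860 normalised counts to 1403, 1319 and 1388 (log2 fold change 0.69, SE 0.074, adjusted p = 5.8e-06). The other small MAF genes rose by less, MAFF by 0.30 and MAFG by 0.22 on the log2 scale, and were looked at after the value of MAFK was seen. BACH2, the relative of BACH1, was higher by 0.81 on the log2 scale (adjusted p = 0.011) from few counts and with overlapping groups, at 29.3, 43.9 and 33.2 against 64.4, 43.7 and 78.3. BTRC, an F-box protein that marks NRF2 for degradation apart from KEAP1, fell from 2168 ± 99.1 to 1326 ± 33.4 (log2 fold change -0.71, adjusted p = 5.3e-08). RBX1, the RING subunit of both of these ligases, fell by 0.33 on the log2 scale (adjusted p = 3.0e-05).

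The 4 glutathione peroxidases did not pass the adjusted test in edgeR or in DESeq2, although 2 of them, GPX1 and GPX8, had an unadjusted p under 0.05. GPX4, the enzyme that reduces lipid peroxides in membranes and guards against ferroptosis, had 2973, 2597 and 2730 normalised counts in the controls and 2741, 2644 and 2461 after knockdown (log2 fold change -0.081, adjusted p = 0.24). GPX1, the main cytosolic form, had 1648, 1600 and 1517 against 1773, 1688 and 1662 (log2 fold change 0.11, adjusted p = 0.072), with 9.03% of its windows also present on chromosome X. GPX8, a form of the endoplasmic reticulum, had 3168, 3338 and 3130 against 3514, 3693 and 3195 (log2 fold change 0.11, adjusted p = 0.086). The groups were separate in GPX1 and overlapped in GPX4 and GPX8. Scaled by library size alone, GPX1 (adjusted p = 0.0077) and GPX8 (adjusted p = 0.0084) passed, and GPX8 also with the replicate number as a block (adjusted p = 0.047). With single libraries left out, GPX1 passed without control replicate 1 (0.13), GPX4 without control replicate 2 (-0.13), and GPX8 without control replicate 2 (0.14) or knockdown replicate 3 (0.17). GPX3, the secreted form, was close to background at 9.33 to 14.6 and 11 to 13.6 counts (log2 fold change 0.072, adjusted p = 0.87).

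Of the 3 transferases, GSTM3 and MGST1 fell and GSTP1 did not pass. GSTM3, a mu-class enzyme that conjugates glutathione to electrophiles, had 1777, 1811 and 1688 normalised counts in the controls and 1255, 1345 and 1351 after knockdown. The groups were well separated (log2 fold change -0.42, SE 0.046, adjusted p = 8.1e-06). MGST1, the microsomal form, had 1698, 1762 and 1624 against 1506, 1590 and 1449 (log2 fold change -0.16, SE 0.048, adjusted p = 0.013). The MGST1 call was lost without knockdown replicate 1 (-0.15) or knockdown replicate 3 (-0.13), and when libraries were scaled by size alone (-0.098). GSTP1, the pi-class enzyme and the most abundant of the 3, had 4962, 4626 and 4759 against 4598, 4660 and 4653 (log2 fold change -0.045, adjusted p = 0.35).

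In the thioredoxin system, the genes of the cytosolic pair fell by a little. TXN, the thioredoxin itself, had 8378, 8590 and 8451 normalised counts in the controls and 7996, 7895 and 7197 after knockdown (log2 fold change -0.14, SE 0.043, adjusted p = 0.016). TXNRD1, the cytosolic reductase that recharges it and another known NRF2 target, had 32708, 34220 and 33323 against 30656, 30956 and 29533 (log2 fold change -0.14, SE 0.035, adjusted p = 0.0058). In both genes the groups were separate, but neither call held when libraries were scaled by size alone (-0.076 and -0.075), and that of TXN was also lost without knockdown replicate 3 (-0.089). TXNRD2, the mitochondrial reductase, had 530, 471 and 523 against 561, 540 and 558 and did not pass (log2 fold change 0.12, adjusted p = 0.14). SRXN1, sulfiredoxin, which repairs overoxidised peroxiredoxins, had 20.8, 20.3 and 7.25 against 18.6, 16.5 and 22.7 (adjusted p = 0.59). Of its exonic bases 90.7% overlap another gene on the same strand, and reads there went uncounted, so that its low counts do not measure its RNA.

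The peroxiredoxins, which reduce hydrogen peroxide at the expense of thioredoxin or glutathione, split by member. PRDX3, the mitochondrial form, had the largest change of the 6, from 12007, 11964 and 12226 normalised counts to 9568, 9908 and 9748 (log2 fold change -0.31, SE 0.034, adjusted p = 7.7e-06). PRDX6, which uses glutathione, fell from 4986, 5350 and 5052 to 4313, 4490 and 4260 (log2 fold change -0.24, SE 0.040, adjusted p = 0.00031). PRDX4, the form of the endoplasmic reticulum, went from 2107, 2138 and 2086 to 1784, 1984 and 1772 (log2 fold change -0.19, SE 0.047, adjusted p = 0.0045). PRDX1, a cytosolic form, moved the other way, from 13454, 13631 and 13593 to 14925, 15125 and 14204 (log2 fold change 0.12, SE 0.036, adjusted p = 0.013). PRDX2 and PRDX5 did not pass, with log2 fold changes of -0.10 (adjusted p = 0.090) and 0.14 (adjusted p = 0.052). The PRDX1 call was lost without knockdown replicate 1 (0.12) or knockdown replicate 2 (0.11), while PRDX2 passed without control replicate 2 (-0.13) and PRDX5 without control replicate 3 (0.21). With all 6 libraries PRDX5 also passed when scaled by library size alone (adjusted p = 0.010), with no filter (adjusted p = 0.010), with 10 counts required in every library (adjusted p = 0.0498) and with the block (adjusted p = 0.042). Of the 6 genes, 3 thus fell, 1 rose and 2 did not pass, each by less than 1.5-fold.

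SOD1, the cytosolic copper-zinc superoxide dismutase, had 5707, 5543 and 5556 normalised counts in the controls and 5647, 5615 and 5456 after knockdown, and the 95% interval of its log2 fold change ran from -0.084 to 0.069. CAT, the peroxisomal catalase, had 997, 934 and 1025 against 960, 1074 and 994 (log2 fold change 0.033, adjusted p = 0.65). The groups overlapped in both genes, and neither had an unadjusted p under 0.05 in edgeR or an adjusted one in DESeq2.

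Levels were compared between genes per length, as TPM, the count per kilobase of annotated exon scaled to a common total in each library. In the control cells the highest of the 34 were TXN (1122 TPM), PRDX1 (1078), NQO1 (721), TXNRD1 (666), PRDX5 (531) and PRDX3 (477), and the median gene had 84.8. GCLM was at 113 TPM against 15.2 for its partner GCLC, and after knockdown they were at 52.8 and 15.7. By the longest transcript they were at 92.0 and 25.4 in the controls and at 43.4 and 26.5 after knockdown, which is the same order with a smaller gap. CTH was at 39.8 TPM and CBS at 1.96 in the controls, and at 27.5 and 5.12 after knockdown. By the longest annotated transcript in place of the union of exons, CTH was at 33.6 and 23.5 TPM and CBS at 3.66 and 9.68. Reads that CBS shares with its copy, and reads placed on the copy, are not in these values. CBS is thus undercounted here, and the part lost to shared reads was not determined. The rise is also larger than with the copies summed, at log2 fold changes of 1.38 for CBS alone and 1.10 for the sum. CHAC1 went from 1.70 to 8.06 TPM and stayed below CHAC2, at 37.6 and 35.8. The strongest relative rises in the set were thus in genes of low RNA level, while NQO1 fell from a high level and GCLM from one nearer the median.

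**Figure D4:**
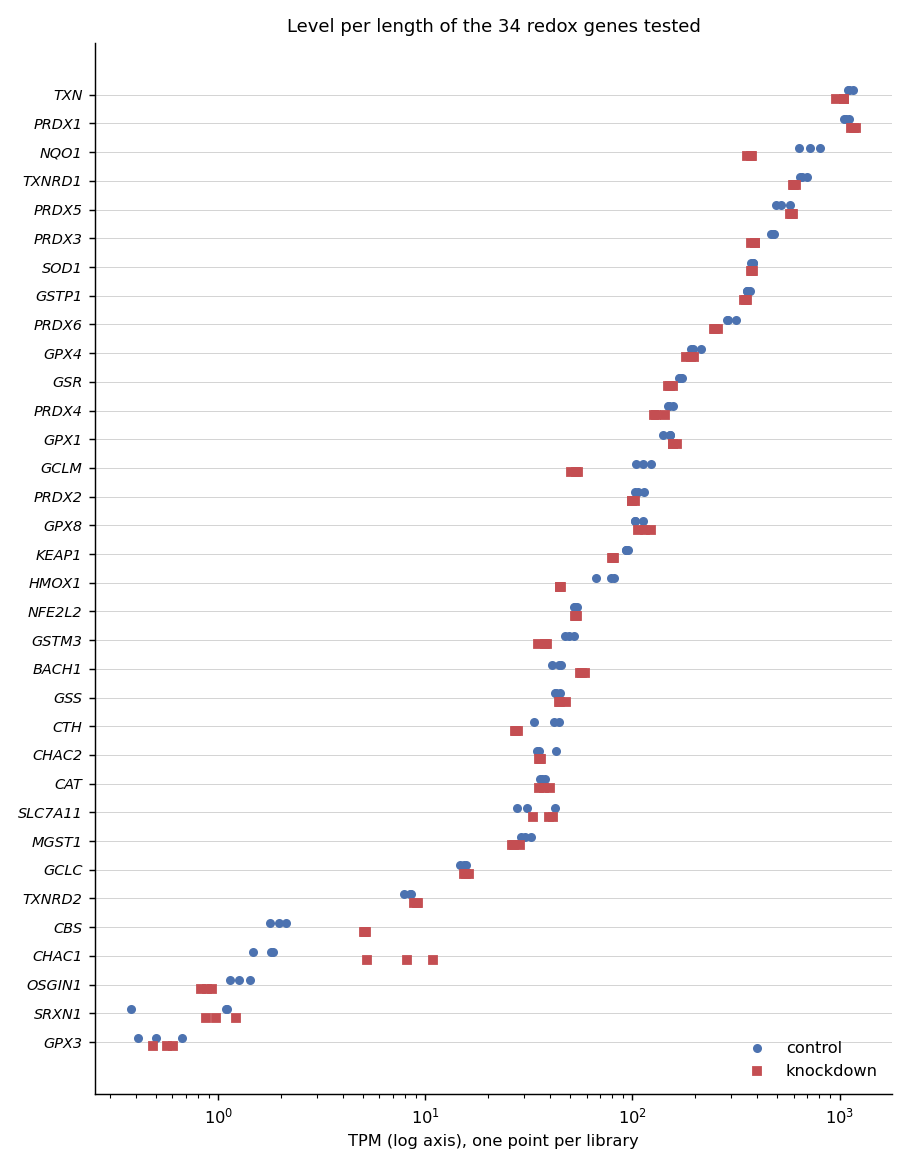
Level of the 34 redox genes in TPM (x axis, log scale), ordered by the control mean (y axis). Each point is a library, with control and knockdown in separate colours. TXN (1122) and PRDX1 (1078) are highest in the controls, and CBS, CHAC1 and OSGIN1 have control means of 1.96, 1.70 and 1.27, with CBS (5.12) and CHAC1 (8.06) clear of their controls after knockdown.

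The siRNA itself was checked for matches to the members. The guide of LINC01133a is shown with its seed, bases 2 to 8, in capitals, and it pairs with LINC01133 at chr1:159976669-159976687.
LINC01133a guide: uCCAUUCUcagguaacuuc
A 7-base match to the seed lay in the 3′ untranslated region of 2144 of 12538 tested genes (17.1%) and of 2 of the 34 members, GCLC and SLC7A11, neither of which passed the test. It was found in none of the 14 members with lower RNA. Of the other NRF2 targets with lower RNA and a 3′ untranslated region in the annotation, 5 of 17 (29.4%) held it. The 8-base match lay in 1 of these 17 (5.88%), against 5.77% of the tested genes.

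Further redox genes were read from lists around the members, in all 135 genes in 8 lists, of which 119 were tested. Together 35 were higher, 45 lower and 39 did not pass, with 7 higher and 9 lower by over 1.5-fold and a median of -0.046. Over all genes 23.3% were higher and 25.0% lower, and these shares are the background of each list count that follows. Scaled by library size alone, 43 of the 119 were higher and 36 lower, so the balance of the directions depended on the scaling. In the wider glutathione list 13 of 26 tested were higher and 6 lower. MGST2, a microsomal transferase, rose from 67.6 to 107 normalised counts and GPX7, a peroxidase of the endoplasmic reticulum, from 195 to 291. GLRX, glutaredoxin, fell from 627 to 412 and GSTO2, an omega-class transferase, from 29.5 to 19.5. Neither GPX7 nor GSTO2 reached 1.5-fold.

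Around transsulfuration, in the list for methionine, taurine and sulfide, 2 of 16 tested were higher and 5 lower. CSAD, which makes hypotaurine from cysteine sulfinate and so draws on the same cysteine, rose from 194 to 310 normalised counts (log2 fold change 0.67). MPST, a source of sulfide from mercaptopyruvate, rose from 710 to 870. MTAP, which opens the methionine salvage route, fell from 1989 to 1241 (log2 fold change -0.68), and MTRR, which reactivates methionine synthase, fell from 2132 to 1723.

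Among 14 genes of thioredoxin, sulfoxide and superoxide handling 4 were higher and 5 lower. The sestrins parted: SESN2 rose from 160 to 321 (log2 fold change 1.00) and SESN1 fell from 486 to 268 (log2 fold change -0.87). CCS, the copper chaperone of SOD1, rose from 346 to 519 and NXN, nucleoredoxin, fell from 2815 to 2244. Of 7 genes for selenoprotein synthesis, on which GPX1, GPX3, GPX4 and the thioredoxin reductases depend, 3 were higher, with PSTK at 0.56 and SECISBP2 at 0.46 on the log2 scale, and 1 was lower, SEPHS1 at -0.14. Of 9 genes of ferroptosis and oxidant sources GCH1 (0.47) and AIFM2 (0.17) were higher and 4 were lower, with ACSL4 at -0.46 and TFRC at -0.28 on the log2 scale.

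CBS, CHAC1 and SLC7A11 are also known as ATF4-responsive genes, and SLC7A11 did not pass. The naming of these members is not complete, and CTH, which acts after CBS, fell (log2 fold change -0.53). A list of 7 other ATF4-responsive genes, chosen with earlier results of these data known, was read beside the members. Of these 5 were higher, 1 was lower and 1 did not pass, with a median log2 fold change of 0.38, against 23.3% higher, 25.0% lower and a median of 0.0032 over all genes. PSAT1, of serine synthesis, went from 4052, 4134 and 3921 normalised counts to 7329, 7496 and 6656 (log2 fold change 0.83). ASNS, asparagine synthetase, went from a mean of 5.00 to 22.3 with 49.3% of its exonic bases in overlap with another gene on the same strand, and DDIT4, an mTOR inhibitor, fell by 0.55 on the log2 scale.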

How the data were processed

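Polyadenylated RNA from 12Z cells, 3 control and 3 knockdown libraries, was sequenced as paired reads. The deposited files hold raw read counts per gene, made by the authors with STAR 2.7.6a (quantMode, uniquely mapped reads) on GRCh38.p13 with an earlier GENCODE release. Each file gives unstranded counts and counts for either strand, and the reverse-stranded column was used, which held 93.86 to 94.11% of stranded counts. Counts that name no gene made up 8.50 to 9.44% of uniquely mapped fragments and were left out. STAR does not count reads that fall on more than 1 gene.

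Genes were named from GENCODE v44 by identifier, which left 241 identifiers without a name. In edgeR 4.0.16 (R 4.3.3), genes were kept by filterByExpr with a minimum count of 10, libraries were scaled by TMM, and knockdown was compared with control in a quasi-likelihood fit across the 15155 genes with Benjamini-Hochberg adjustment. A gene passed at an adjusted p under 0.05. Intervals are 95% intervals of that fit. Folds and percentages of the control level were taken from the fitted log2 fold change. TPM was computed from the counts and the union of exons, with the longest transcript as an alternative. The fit was tested on simulated data with 200 changed genes. Alternatives were DESeq2 1.42.0, other scalings, filters and strands, a replicate block and leaving out each library.

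The members and lists were chosen with earlier results of these data known. All members are named, and from each other list the 2 genes with the highest and the 2 with the lowest log2 fold change that passed; exceptions are stated. The paper calls the libraries of each group biological replicates. No source ties them to separate days, and p-values measure the spread between these libraries, which may be partly technical. Correlations of same-numbered libraries' deviations from the group means were -0.015, 0.0049 and 0.057, so the numbers were not taken as pairs. Counting error is small at these depths, except for genes with few counts such as GPX3 and SRXN1.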

Additional observations from a re-analysis of the deposited data

How the results depend on the processing

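Of 440 values of single members under an alternative, 395 kept direction and side of the threshold, 12 lost the call (MGST1, TXN, TXNRD1, PRDX1 and OSGIN1), 18 gained it and 15 changed sign, in 7 genes that had not passed. Of the 18 members that passed, 13 did so in every alternative run, and CBS, CHAC1, GCLM, HMOX1 and NQO1 also kept a change over 1.5-fold. Leaving out any 1 library gave 15 to 22 members that passed. Scaling by library size alone shifted the median of all genes from 0.0032 to 0.065, and 9 members were then higher and 11 lower, while over all genes 4701 were higher and 2939 lower against 3532 and 3783. With the replicate number as a block, 7 members were higher, SLC7A11 among them (adjusted p = 0.047), and 14 lower. DESeq2 called 6119 genes and 17 members. The edgeR fit with no filter gave GCLM an adjusted p of 1.3e-121 against 3.3e-09 in the main fit, so calls gained in it are not on an equal footing. Values that changed sign were GPX3 at -0.053 and NFE2L2 at -0.0061 with unstranded counts, NFE2L2 at -0.00076 in DESeq2, and GSTP1 at 0.017 and SOD1 at 0.055 with library size alone. Leaving out 1 library at a time gave CHAC2 -0.11 to 0.0077, GPX3 -0.063 to 0.24, SRXN1 -0.10 to 0.50, SOD1 -0.018 to 0.011, CAT -0.011 to 0.074 and NFE2L2 -0.0025 to 0.011. The cause of these shifts was not tested. GPX3 and SRXN1 gave no value when 10 counts were required in every library.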
